A study of Mus musculus with 16 samples.

Results

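Myeloid-derived suppressor cells (MDSCs) restrain T cells through a small set of enzymes, ligands and cytokines, and 10 genes of that effector repertoire were followed here. They were chosen by symbol for their role, with earlier results of these data known: the arginases *Arg1* and *Arg2*, the inducible nitric oxide synthase *Nos2*, the checkpoint ligand *Cd274* (PD-L1), the prostaglandin E2 enzymes *Ptgs2* (COX-2) and *Ptges*, the cytokines *Tgfb1* and *Il10*, and the ectonucleotidases *Entpd1* (CD39) and *Nt5e* (CD73). All 10 were found among the 24421 gene symbols that were counted. MDSCs were sorted from spleens of 8 mice bearing B16.F10 melanoma, a transplanted mouse tumor line, implanted under the skin of the back. The mice, matched for sex and age, were 4 wild type (WT) C57BL/6 animals and 4 *Nlrp3*-/- animals on the same background, whose *Nlrp3* gene is disrupted in every cell by an EGFP cassette with a poly(A) signal placed at the start codon in exon 2. All groups carried the tumor, so no group shows the level in tumor-free mice. From each mouse came 1 library of monocytic cells (M-MDSCs, CD11b high Ly6C+Ly6G-) and 1 of granulocytic cells (G-MDSCs, CD11b high Ly6C-Ly6G+), which gave 4 groups of 4 and 16 libraries.

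As background, arginase 1 and arginase 2 deplete the arginine that T cells need for proliferation, and NOS2 consumes the same amino acid to make nitric oxide. PD-L1 engages the inhibitory receptor PD-1 on T cells. COX-2 and the microsomal prostaglandin E synthase make prostaglandin E2, TGF-β1 and IL-10 are inhibitory cytokines, and CD39 and CD73 act in sequence to turn extracellular ATP into adenosine. ARG1 and NOS2 are the enzymes most often named as effectors of MDSCs in tumors.

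Libraries held 2295967 to 6079866 reads counted on genes. Levels are in CPM, the counts of a gene scaled to a common library size after TMM normalization, which adjusts for differences in RNA composition, and a gene was taken as detected in a library at 3 reads or more, which is 0.493 to 1.31 CPM by library size. The sequencing reads the 3′ end of transcripts, so levels were compared between samples and not between genes. The sorted subsets carried their own markers: the 7 monocytic markers summed to 5632 to 8534 CPM in M-MDSCs and 688 to 1239 CPM in G-MDSCs, and the 6 counted granulocytic markers to 1137 to 6602.5 CPM in M-MDSCs and 105716 to 162108 CPM in G-MDSCs. *Ly6g*, the gene of a sort marker, was on the granulocytic list but not among the counted symbols. *S100a8* and *S100a9* made most of the granulocytic sum in G-MDSCs. The highest granulocytic sum among M-MDSCs belonged to WT replicate 2, and the other 3 WT libraries lay between 1137 and 1482 CPM. *Nlrp3* itself fell in *Nlrp3*-/- mice to 1.49% of the WT mean in M-MDSCs (65.5 ± 22.5 against 0.979 ± 0.610 CPM, mean ± SD, n = 4) and to 3.17% in G-MDSCs (296 ± 34.2 against 9.37 ± 3.76 CPM), with an exact two-sided permutation p of 0.0286 in both, the smallest that 4 against 4 mice allow. The cassette lies upstream of the 3′ end that was read, and the origin of the remaining reads was not tested.

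Of the 10 genes, *Arg2*, *Cd274*, *Ptgs2*, *Tgfb1* and *Entpd1* were detected in all 16 libraries. *Nt5e* was detected in 13, *Il10* in 10 and *Ptges* in 8. *Nos2* reached 3 reads in 1 library, and *Arg1* in none.

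The arginase and nitric oxide genes split sharply in detection. *Arg1*, the cytosolic arginase (chr10:24915221-24927484, minus strand, mm10), had 7 reads over the 16 libraries together and no more than 2 in any of them. The WT M-MDSC libraries had 1, 1, 1 and 0 *Arg1* reads, the *Nlrp3*-/- M-MDSC libraries 1, 0, 0 and 2, the WT G-MDSC libraries none, and the *Nlrp3*-/- G-MDSC libraries 1, 0, 0 and 0. *Nos2* (chr11:78920787-78960254, plus strand) had 3 reads, all of them in *Nlrp3*-/- G-MDSC replicate 2, and 0 reads in the other 15 libraries. *Arg1* was therefore below the detection floor in every library, and *Nos2* in all but 1. These depths do not show whether either gene was silent: 0 reads still allow a level of up to 0.493 to 1.31 CPM, depending on the library.

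*Arg2*, the mitochondrial arginase (chr12:79130777-79156301, plus strand), was by contrast detected in every library. Its level was 215, 202, 344 and 342 CPM in the 4 WT G-MDSC libraries and 371.5, 389.5, 369 and 453 CPM in the 4 *Nlrp3*-/- ones. In M-MDSCs it was 2.41, 6.74, 4.10 and 5.82 CPM in WT and 1.28, 2.38, 3.13 and 4.10 CPM in *Nlrp3*-/- mice. Every G-MDSC library lay far above every M-MDSC library. The log2 difference, G-MDSCs over M-MDSCs, was 5.85 ± 0.33 (SE) in WT mice, or 57.7-fold (adjusted p = 5.87e-08, edgeR's quasi-likelihood test, adjusted by Benjamini-Hochberg over all genes tested). It was 7.07 ± 0.29 in *Nlrp3*-/- mice, or 134-fold (adjusted p = 2.75e-10, the same test). Within single mice the ratio ran from 29.99 to 291.

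The *Arg2* level of an M-MDSC library was 0.875% to 2.44% of the mean of G-MDSCs in WT mice and 0.323% to 1.04% in *Nlrp3*-/- mice. The same share was 1.45% to 3.68% and 1.46% to 3.31% for *Csf3r*, the G-CSF receptor, 0.926% to 6.10% and 1.04% to 1.61% for *S100a8*, and 0.0205% to 0.135% and 0.0181% to 0.111% for *Cxcr2*, the chemokine receptor of neutrophils. For *Mmp8*, a neutrophil collagenase, it was 11.1% to 17.4% and 9.72% to 19.6%. Whether the few *Arg2* reads of M-MDSCs came from granulocytic cells was not tested. As in any bulk library, fewer cells of a type and less RNA per cell cannot be told apart.

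The other genes of arginine handling were drawn from a list of 15 transporters, urea cycle and polyamine genes, of which 11 were tested. In WT mice 3 of them were called higher and 5 lower in G-MDSCs, and in *Nlrp3*-/- mice 2 and 4. Their median log2 difference was -0.26 and -0.35, beside -0.047 and -0.12 for all genes tested. *Smox*, which oxidizes spermine, was higher in G-MDSCs (43.1 ± 7.32 CPM in M-MDSCs and 243 ± 60.0 CPM in G-MDSCs of WT mice), whereas *Slc7a7*, an arginine exporter, was higher in M-MDSCs (23.1 ± 3.33 against 2.59 ± 1.21 CPM). Of 11 genes for other nitric oxide synthases and their cofactor, 6 were tested in WT mice and 2 of them were called, both lower in G-MDSCs: *Spr* (31.3 ± 6.97 CPM in M-MDSCs, 5.18 ± 3.51 in G-MDSCs) and *Qdpr* (25.6 ± 2.87 and 7.36 ± 2.31), which make and recycle tetrahydrobiopterin. In *Nlrp3*-/- mice 7 were tested and the same 2 were called, again lower. The list medians were -0.20 in WT and 0.046 in *Nlrp3*-/- mice.

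**Figure D1:**
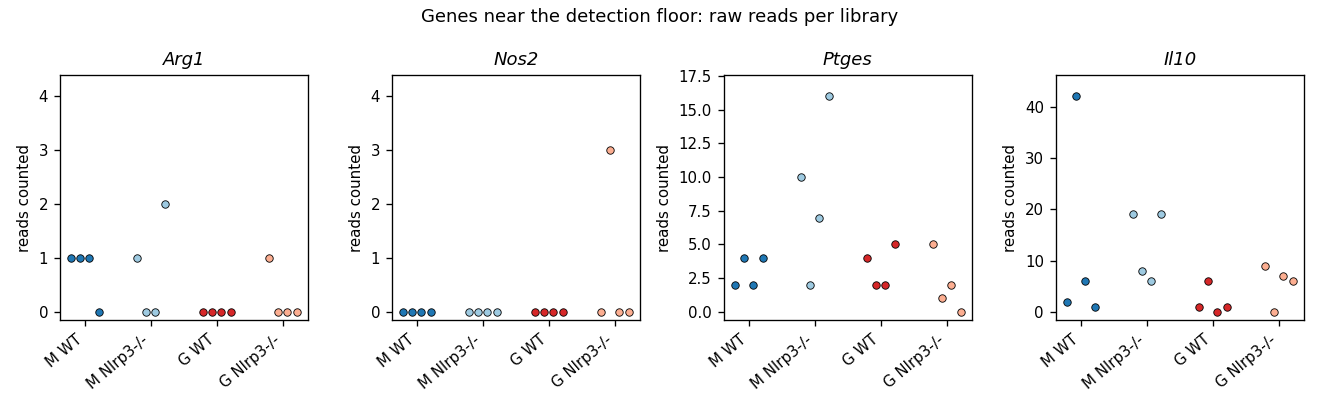
Raw reads per library (y axis) of the 4 genes near the detection floor, by group (x axis, M and G for M-MDSC and G-MDSC). Each point is 1 library. *Arg1* never exceeds 2 reads, *Nos2* has reads in 1 library, and the *Il10* point at 42 reads is WT M-MDSC replicate 2.

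Both ectonucleotidase genes, *Ptgs2* and *Cd274* were also higher in G-MDSCs of WT mice, and *Tgfb1*, alone of the 6 effector genes tested, was higher in M-MDSCs. A gene was called when its adjusted p was under 0.05 and its fold change above 1.5. In WT mice 26.3% of the 9739 genes tested were called higher and 27.1% lower in G-MDSCs, and in *Nlrp3*-/- mice 23.7% and 27.4% of 10071, so a call on its own is common between these subsets. The groups did not overlap for 51.9% of genes in WT and 50.2% in *Nlrp3*-/- mice. The effector genes tested numbered 6 in WT mice, where 5 were called higher and 1 lower, and 5 in *Nlrp3*-/- mice, where 4 were called higher and 1 lower. Their median log2 difference was 3.08 and 2.80, beside -0.047 and -0.12 for all genes. None of these overlapped between the subsets in either genotype. *Nt5e*, 1 of the 5 called higher in WT mice, entered the test through G-MDSCs, where it is high.

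*Entpd1* (chr19:40612366-40741602, plus strand), the enzyme that hydrolyzes ATP and ADP outside the cell, had 19.7, 17.7, 16.2 and 16.4 CPM in WT M-MDSCs and 243, 237, 365 and 276 CPM in WT G-MDSCs. In *Nlrp3*-/- mice it had 19.97, 27.4, 19.4 and 18.5 CPM in M-MDSCs and 264, 333, 299.6 and 324 CPM in G-MDSCs. The groups lay an order of magnitude apart with little spread. The log2 difference was 4.00 ± 0.19 (SE) in WT mice (15.97-fold, adjusted p = 1.91e-08, edgeR's quasi-likelihood test) and 3.73 ± 0.18 in *Nlrp3*-/- mice (13.2-fold, adjusted p = 1.19e-09), and the ratio within a mouse was 12.2 to 22.5.

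*Nt5e* (chr9:88327197-88372092, plus strand), which completes the path to adenosine, had at most 41 reads in a library. WT G-MDSCs had 41, 36, 31 and 22 reads, or 13.7, 12.2, 7.50 and 8.55 CPM, and WT M-MDSCs 2, 9, 14 and 0 reads. The log2 difference in WT mice was 3.17 ± 0.59 (SE, adjusted p = 0.000623, edgeR's quasi-likelihood test). There *Nt5e* passed the filter on low counts through its G-MDSC reads, the group where it is high, which favors a call in that direction. Without the filter the WT difference was 3.12 (adjusted p = 5.58e-05, the same test). In *Nlrp3*-/- mice the gene was too low for the test, with 10, 40, 15 and 13 reads in G-MDSCs and 5, 3, 0 and 8 in M-MDSCs. Its mean CPM was 4.67 ± 3.49 in those G-MDSCs and 0.529 ± 0.420 in those M-MDSCs, an exact two-sided permutation p of 0.0286, which became 0.457 after adjustment over the 16 exact tests. That test took the M-MDSC and G-MDSC libraries as independent, although they came from the same mice. Where another setting admitted *Nt5e* to edgeR's quasi-likelihood test in *Nlrp3*-/- mice, it was called: without the filter on low counts (log2 difference 2.86, adjusted p = 0.00516), in the fit of all 16 samples (2.99, adjusted p = 0.00172) and in 7 fits that left out a library (adjusted p of 0.00575 to 0.0295). In the fits that kept the filter, the gene again entered through G-MDSCs, which favors a call in this direction. *Nt5e* was higher in the G-MDSCs of all 8 mice.

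Other genes of ATP and adenosine handling went either way between the subsets. Of 20 listed, 13 were tested in WT mice, with 5 called higher and 4 lower in G-MDSCs, and 13 in *Nlrp3*-/- mice, with 3 higher and 5 lower, and their median log2 difference was -0.49 and -0.72. *Entpd3*, a relative of *Entpd1*, was at 39.0 ± 5.14 CPM in WT G-MDSCs and 0.0464 ± 0.0928 CPM in WT M-MDSCs. *Adora2b*, an adenosine receptor, was the reverse, with 12.8 ± 3.68 CPM in M-MDSCs and 0.204 ± 0.244 CPM in G-MDSCs. *Bst1*, an NAD-consuming ectoenzyme, was higher in G-MDSCs (13.3 ± 3.91 and 80.7 ± 20.8 CPM in WT mice).

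*Ptgs2* (chr1:150100031-150108227, plus strand) is the inducible cyclooxygenase. WT M-MDSCs had 4.27, 20.3, 15.5 and 3.76 CPM and WT G-MDSCs 70.3, 64.2, 104 and 127 CPM. In *Nlrp3*-/- mice M-MDSCs had 13.6, 8.34, 5.42 and 4.10 CPM and G-MDSCs 91.1, 49.3, 37.9 and 62.4 CPM. All G-MDSC libraries lay above all M-MDSC libraries, though the ratio within a mouse ran from 3.15 to 33.7. The log2 difference was 2.99 ± 0.46 (SE) in WT mice (adjusted p = 0.000166, edgeR's quasi-likelihood test) and 2.80 ± 0.38 in *Nlrp3*-/- mice (adjusted p = 2.67e-05). *Ptges* (chr2:30889471-30929863, minus strand), the enzyme after it, had at most 16 reads in a library and was detected in 8 of 16. Its mean was 0.664 ± 0.479 CPM in M-MDSCs and 1.11 ± 0.665 CPM in G-MDSCs of WT mice, against 1.25 ± 0.712 and 0.453 ± 0.497 CPM where *Nlrp3* was disrupted, and all 4 groups overlapped.

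Of 12 other prostaglandin E2 genes, 9 were tested in WT mice, with 2 called higher and 3 lower in G-MDSCs, and 8 in *Nlrp3*-/- mice, with 2 higher and 2 lower. The list medians were -0.17 and -0.17. *Ptgs1*, the constitutive cyclooxygenase, was higher in G-MDSCs (7.04 ± 1.93 and 21.2 ± 9.99 CPM in WT mice), and *Ptger4*, a prostaglandin E2 receptor, was higher in M-MDSCs (70.3 ± 28.0 and 21.9 ± 5.47 CPM).

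*Cd274* (chr19:29367455-29388095, plus strand) was present in both subsets. WT M-MDSCs had 9.83, 19.5, 13.7 and 9.24 CPM and WT G-MDSCs 28.3, 43.6, 36.3 and 28.4 CPM. In *Nlrp3*-/- mice M-MDSCs had 6.39, 6.30, 7.30 and 7.18 CPM and G-MDSCs 16.4, 15.5, 21.5 and 29.1 CPM. Its level was higher in the G-MDSCs of all 8 mice, by a ratio of 2.23 to 4.05. The log2 difference was 1.36 ± 0.27 (SE) in WT mice (adjusted p = 0.000996, edgeR's quasi-likelihood test) and 1.48 ± 0.29 in *Nlrp3*-/- mice (adjusted p = 0.000639). With scaling by library size alone it was 0.62 in WT mice, with an adjusted p of 0.0521, and no longer called. That scaling moved the median of all genes from -0.047 to -0.79 in WT and from -0.12 to -0.83 in *Nlrp3*-/- mice, and the share of called genes that were higher in G-MDSCs from 49.2% to 18.7% and from 46.4% to 18.5%. All 6 effector genes tested in WT mice and all 5 in *Nlrp3*-/- mice kept their direction under it.

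Among 15 other checkpoint ligands and related genes, 13 were counted. In WT mice 6 were tested, with 4 called higher and 2 lower in G-MDSCs and a median of 1.01, and in *Nlrp3*-/- mice 7, with 3 higher and 1 lower and a median of 0.54. *Cd80*, a ligand of CD28 and CTLA-4, was higher in G-MDSCs (5.68 ± 0.810 and 66.5 ± 7.49 CPM in WT mice), as was *Icosl* (26.4 ± 1.97 and 66.4 ± 24.1 CPM), and *Pvr*, the ligand of TIGIT, was higher in M-MDSCs (14.8 ± 2.11 and 3.1 ± 1.77 CPM).

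**Figure D2:**
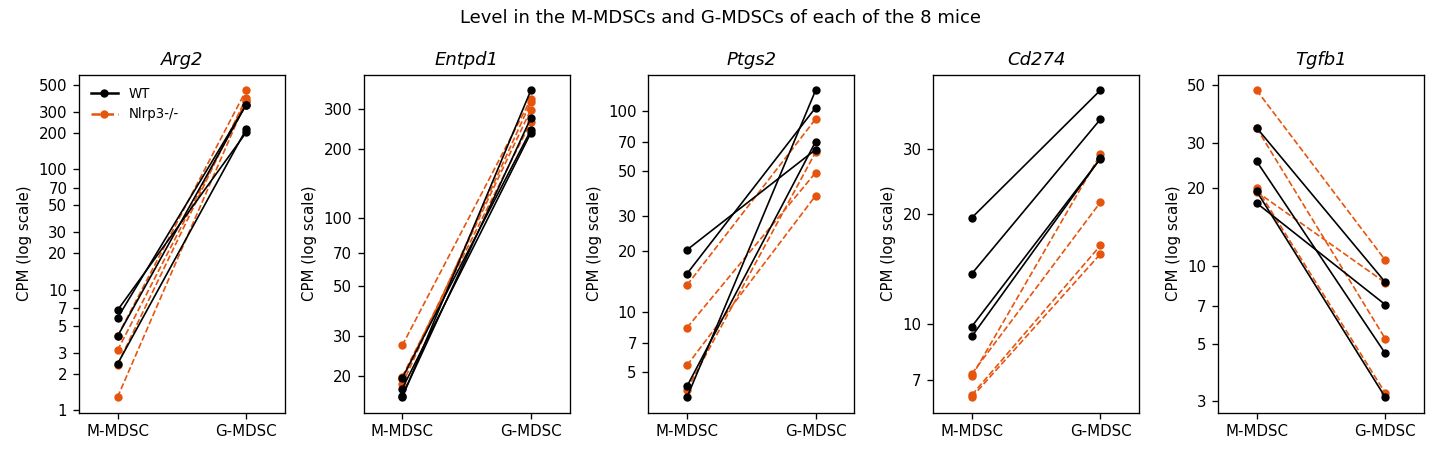
CPM (y axis, log scale) in the M-MDSC and G-MDSC libraries of the same mouse, joined by a line, for the 5 genes detected in all 16 libraries. Solid black lines are WT mice and dashed orange lines *Nlrp3*-/- mice. *Arg2*, *Entpd1*, *Ptgs2* and *Cd274* rise and *Tgfb1* falls from M-MDSCs to G-MDSCs in all 8 mice.

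The cytokine genes did not share this pattern. *Tgfb1* (chr7:25687002-25705077, plus strand) had 34.3, 17.5, 25.5 and 19.5 CPM in WT M-MDSCs and 8.67, 7.10, 4.60 and 3.11 CPM in WT G-MDSCs. In *Nlrp3*-/- mice it had 20.1, 19.4, 48.0 and 34.2 CPM in M-MDSCs and 3.23, 8.63, 10.6 and 5.24 CPM in G-MDSCs. Each M-MDSC library lay above each G-MDSC library. The log2 difference was -2.04 ± 0.34 (SE) in WT mice (4.11-fold lower in G-MDSCs, adjusted p = 0.000275, edgeR's quasi-likelihood test) and -2.24 ± 0.39 in *Nlrp3*-/- mice (4.71-fold, adjusted p = 0.000252). The level in a G-MDSC library was 12.8% to 35.8% of the M-MDSC mean in WT mice, where the same share was 0.291% to 1.06% for *Ccr2*, a chemokine receptor of monocytes, and 24.9% to 50.8% for *Csf1r*, the receptor of M-CSF.

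*Il10* (chr1:131019845-131024974, plus strand) had 2, 42, 6 and 1 reads in the M-MDSCs of WT mice and 1, 6, 0 and 1 in their G-MDSCs. *Nlrp3*-/- mice had 19, 8, 6 and 19 *Il10* reads in M-MDSCs and 9, 0, 7 and 6 in G-MDSCs. The 42 reads, 5.89 CPM, belonged to WT M-MDSC replicate 2, the library with the high granulocytic sum. In the G-MDSCs of the same mouse *Il10* was at 2.03 CPM, and whether that sum and the *Il10* level are linked was not tested. The mean CPM of *Il10* was 1.92 ± 2.67 in M-MDSCs and 0.687 ± 0.910 in G-MDSCs of WT mice, and 1.81 ± 0.595 and 1.27 ± 0.892 in those of *Nlrp3*-/- mice. All 4 groups overlapped. For *Arg1*, *Nos2*, *Ptges*, *Il10* and, where it was too low for the count test, *Nt5e*, the 16 exact permutation tests gave adjusted p-values of 0.457 or above. A single result at the smallest possible p has an adjusted p of 0.457 here, so these tests could not call 1 gene alone and do not show that levels were equal.

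Of 13 genes for other TGF-β isoforms, latency and activation, 4 were tested in both genotypes. In WT mice 1 was called higher and 1 lower in G-MDSCs, and in *Nlrp3*-/- mice 1 and 2, with medians of -0.19 and -0.35. *Furin*, which cleaves the TGF-β precursor, was higher in G-MDSCs (216 ± 33.2 and 508 ± 90.0 CPM in WT mice), and *Itgav*, the subunit of integrins that activate latent TGF-β, was higher in M-MDSCs (27.9 ± 6.27 and 13.4 ± 0.268 CPM). Of 12 genes of the IL-10 family, receptors and signal, 8 were tested, and in each genotype 5 were called higher and 2 lower in G-MDSCs, with medians of 1.23 and 1.28. *Il10rb*, a subunit of the IL-10 receptor, was higher in G-MDSCs (31.5 ± 1.28 and 88.0 ± 25.6 CPM in WT mice), as was the kinase *Jak1* (445 ± 54.5 and 1424 ± 220 (219.7) CPM), whereas the kinase *Tyk2* was higher in M-MDSCs (85.9 ± 17.6 and 20.7 ± 1.25 CPM).

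Among 17 regulators linked to the suppressive function of MDSCs, 16 were tested. In G-MDSCs 8 were called higher and 3 lower in WT mice, and 8 and 2 in *Nlrp3*-/- mice, with medians of 0.81 and 0.59. *Ddit3* (CHOP), a factor of the stress response, was higher in G-MDSCs (57.9 ± 9.23 and 322 ± 98.5 CPM in WT mice), and *Irf8*, which directs the monocyte lineage, was higher in M-MDSCs (483 ± 145 and 91.2 ± 14.7 CPM).

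**Figure D3:**
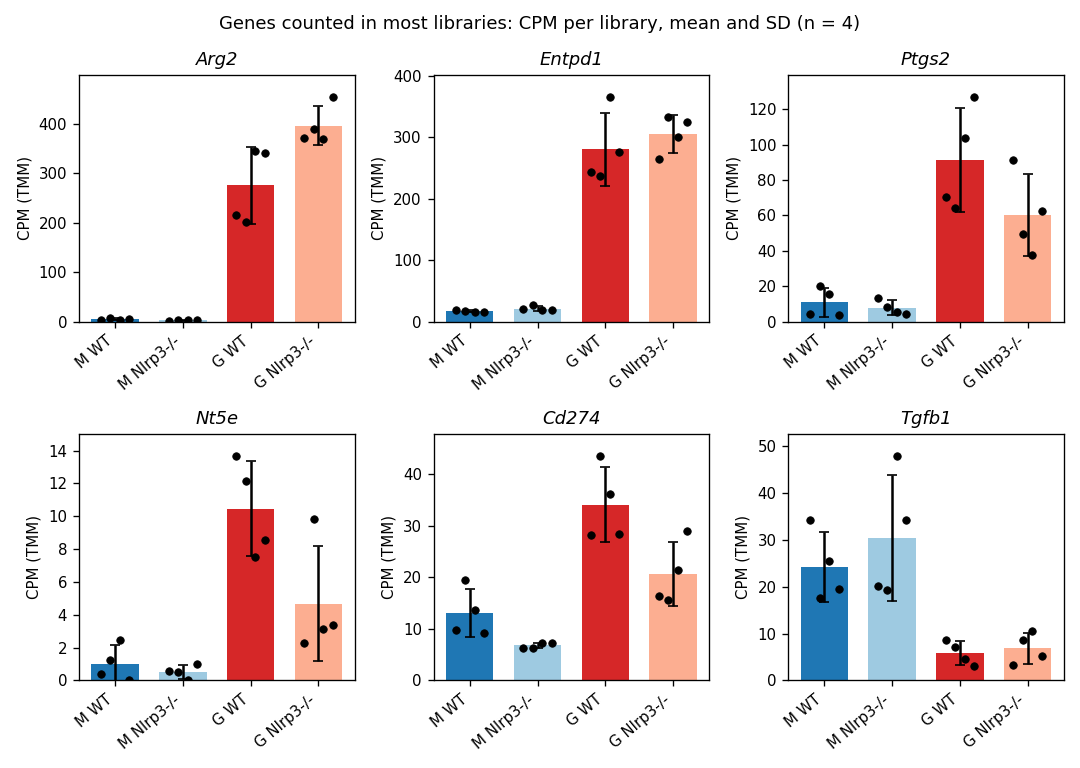
CPM per library (y axis) of the 6 effector genes that could be tested, by group (x axis). Bars are the mean of 4 libraries, error bars the SD, and points single libraries. The bars of *Arg2*, *Entpd1*, *Ptgs2*, *Nt5e* and *Cd274* are higher in G-MDSCs, those of *Tgfb1* in M-MDSCs, and *Cd274* is lower in *Nlrp3*-/- than in WT mice within each subset.

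Promoter sequences of 300 bases, from 250 before to 50 after a start site, were at hand for 6 of the 10 genes from RefSeq on GRCm38.p6, with 2 start sites for *Entpd1*. They were searched on both strands for short motifs of factors known to act in myeloid cells: C/EBP (TTNNGNAA, in 40.7% of 32817 promoters of this length), the CRE core (ACGTCA, 7.51%), the E-box (CACGTG, 7.15%), part of the interferon response element (GAAANNGAA, 8.55%), AP-1 (TGANTCA, 7.81%), STAT (TTCNNNGAA, 8.29%), RelA (GGNNNTTCC, 18.5%) and the TATA box (TATAAA, 13.6%). Shown are the promoters of *Cd274*, called between genotypes in G-MDSCs, of *Ptgs2*, higher in G-MDSCs, and of *Tgfb1*, the gene higher in M-MDSCs, all on the plus strand with motif matches in capitals.
Cd274, chr19:29367188-29367487: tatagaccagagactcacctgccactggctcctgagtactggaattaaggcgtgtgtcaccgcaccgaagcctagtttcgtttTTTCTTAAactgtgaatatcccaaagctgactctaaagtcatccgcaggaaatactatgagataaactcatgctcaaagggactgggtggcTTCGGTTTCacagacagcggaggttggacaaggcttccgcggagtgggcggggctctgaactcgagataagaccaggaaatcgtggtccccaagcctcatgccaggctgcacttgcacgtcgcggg
Ptgs2, chr1:150099781-150100080: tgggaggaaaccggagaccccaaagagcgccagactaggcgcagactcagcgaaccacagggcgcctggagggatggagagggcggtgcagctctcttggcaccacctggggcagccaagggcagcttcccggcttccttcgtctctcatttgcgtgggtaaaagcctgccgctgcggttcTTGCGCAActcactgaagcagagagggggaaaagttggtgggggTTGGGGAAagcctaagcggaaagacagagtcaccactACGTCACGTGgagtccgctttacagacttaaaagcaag
Tgfb1, chr7:25686752-25687051: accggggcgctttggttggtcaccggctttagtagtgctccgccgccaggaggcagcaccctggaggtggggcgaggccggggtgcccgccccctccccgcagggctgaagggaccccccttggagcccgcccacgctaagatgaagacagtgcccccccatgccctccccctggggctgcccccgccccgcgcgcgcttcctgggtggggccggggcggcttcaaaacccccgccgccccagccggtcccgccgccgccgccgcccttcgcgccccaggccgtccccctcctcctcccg
The *Cd274* window held a C/EBP match and a match to the interferon motif, both on the minus strand. The *Ptgs2* window held 2 C/EBP matches, 1 of which reads the same on both strands, and a CRE core whose last bases overlap an E-box. None of the motifs was found in the *Tgfb1* window, whose GC content was 77% against 52.7% for *Cd274* and 59.3% for *Ptgs2*. These matches describe the letters of the windows and were not measured as binding.

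The comparison of genotypes addresses whether loss of *Nlrp3* goes with a different level of these effectors. *Cd274* was the effector gene that passed the test, and it did so in G-MDSCs. Its G-MDSC level was 34.1 ± 7.32 CPM in WT and 20.6 ± 6.22 CPM in *Nlrp3*-/- mice, and the groups overlapped, since the highest *Nlrp3*-/- library, at 29.1 CPM, lay above the lowest 2 WT libraries. The log2 fold change, *Nlrp3*-/- over WT, was -0.82 ± 0.25 (SE, adjusted p = 0.0377, edgeR's quasi-likelihood test), a level 1.77-fold lower. *Cd274* had been singled out by the study on these same samples, so this is not independent evidence of its direction. In G-MDSCs 11.7% of the 9273 genes tested were called lower and 4.70% higher, and 1 of 6 effector genes tested was called lower and none higher. Their median log2 fold change was -0.33, beside 0.034 for all genes. An unadjusted p under 0.05 was found for 4 of the 6, and for 2997 of the 9273 genes tested. Of these 4, *Arg2* was higher and *Cd274*, *Ptgs2* and *Nt5e* were lower in *Nlrp3*-/- mice.

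The call in G-MDSCs was held by 8 of 18 other settings, with adjusted p-values of 0.0227 to 0.275. It was lost with scaling by library size alone (adjusted p = 0.0591), a fit of all 16 samples (0.0555), the replicate number as a block (0.0876) and a correction for GC content and length (log2 fold change -0.54, adjusted p = 0.191). It was also lost without WT replicate 2 (0.113), WT replicate 3 (0.0769), *Nlrp3*-/- replicate 1 (0.0892), *Nlrp3*-/- replicate 2 (0.107) or *Nlrp3*-/- replicate 3 (0.0708). GC content moved with genotype over all genes: the median transcript GC content was 44.6% among genes called lower and 54.2% among those called higher in *Nlrp3*-/- G-MDSCs, 49.5% among those tested, and 44.9% for *Cd274*.

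**Figure D4:**
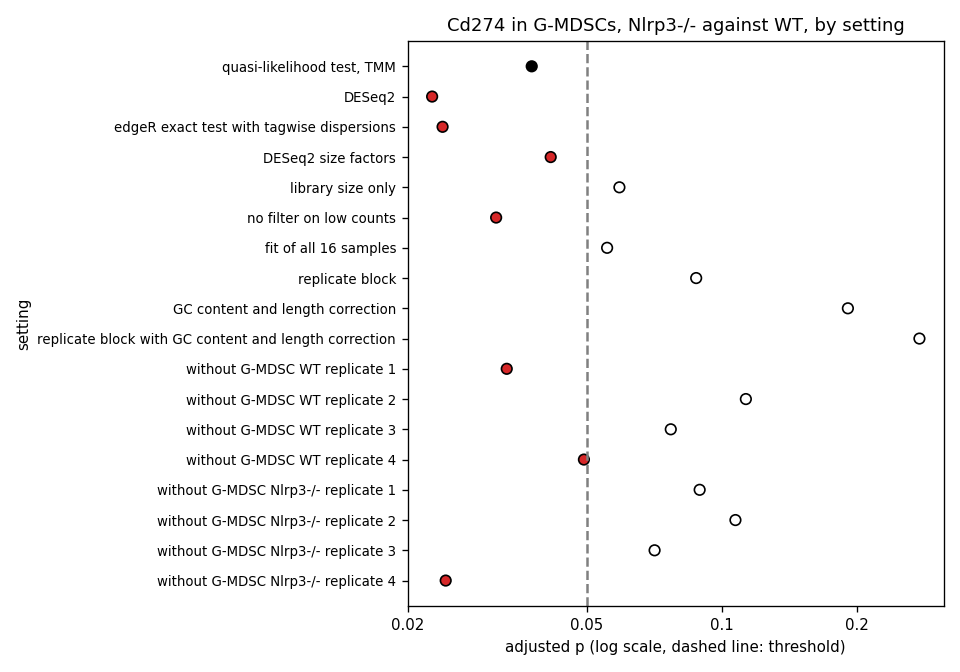
Adjusted p (x axis, log scale) of *Cd274* in *Nlrp3*-/- against WT G-MDSCs under the main test (black) and each other setting (y axis). Red points fall under the dashed threshold of 0.05 and open points above it. The test without a fold change minimum has the main adjusted p and is not drawn.

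In M-MDSCs *Cd274* also lay lower in *Nlrp3*-/- mice, with 6.30 to 7.30 CPM against 9.24 to 19.5 CPM in WT mice, and the groups did not overlap, as was so for 19.3% of the 9986 genes tested. Its mean was 6.79 ± 0.521 against 13.1 ± 4.73 CPM. The log2 fold change was -0.93 ± 0.28 (SE) with an adjusted p of 0.0503 (edgeR's quasi-likelihood test), just past the threshold. It was called under 5 of 18 other settings, among them DESeq2 (adjusted p = 0.0213), edgeR's exact test (0.041) and leaving out *Nlrp3*-/- replicate 1 (0.0499). Without WT replicate 2, the library with the high granulocytic sum and the highest *Cd274* level of the M-MDSCs, it was -0.66 with an adjusted p of 0.172.

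None of the 5 effector genes tested in M-MDSCs was called, where 7.10% of genes were called lower and 3.51% higher. An unadjusted p under 0.05 was found for 1 of the 5, *Cd274*, and for 3002 of the 9986 genes tested. DESeq2 and edgeR's exact test each called 1 effector gene. The median log2 fold change of the 5 effector genes was -0.46, beside 0.066 for all genes. For *Cd274* the genotype effect in G-MDSCs minus that in M-MDSCs was 0.23 ± 0.38 on the log2 scale (adjusted p = 0.992, edgeR's quasi-likelihood test).

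The fitted genotype effect on *Arg2* had opposite signs in the subsets and passed the test in neither. In G-MDSCs its mean was 276 ± 77.9 CPM in WT and 396 ± 39.6 CPM in *Nlrp3*-/- mice, and the groups did not overlap, as was so for 24.4% of genes. The log2 fold change was 0.43 ± 0.19 (SE, adjusted p = 0.135, edgeR's quasi-likelihood test). In M-MDSCs the means were 4.76 ± 1.91 and 2.72 ± 1.19 CPM and the log2 fold change was -0.79 ± 0.45 (adjusted p = 0.256). The difference between these effects was 1.34 ± 0.43 with an unadjusted p of 0.0052 and an adjusted p of 0.93. No effector gene was called for such a difference, and of the 10696 genes tested 0.0187% were called higher and 0.00935% lower. An unadjusted p under 0.05 was found for 1 of the 6 effector genes tested, and for 480 of the 10696 genes. DESeq2 called none of the 6 either.

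The remaining genes gave no call between genotypes. In G-MDSCs *Nt5e* was 10.5 ± 2.92 CPM in WT and 4.67 ± 3.49 CPM in *Nlrp3*-/- mice, where replicate 2 stood at 9.86 CPM and the other 3 between 2.31 and 3.41 CPM. Its log2 fold change was -1.24 ± 0.47 (SE, adjusted p = 0.0844, edgeR's quasi-likelihood test), and without *Nlrp3*-/- replicate 2 it was -1.91 and called (adjusted p = 0.0128). *Ptgs2* in G-MDSCs was 91.3 ± 29.3 CPM in WT and 60.2 ± 22.9 CPM in *Nlrp3*-/- mice, with a log2 fold change of -0.69 ± 0.28 (adjusted p = 0.0976). It was called without a filter on low counts (adjusted p = 0.038) and without *Nlrp3*-/- replicate 1 (log2 fold change -0.96, adjusted p = 0.0283), and corrected for GC content and length it was -0.23.

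*Ptgs2* in M-MDSCs was 10.97 ± 8.27 CPM in WT and 7.86 ± 4.21 CPM in *Nlrp3*-/- mice, and its log2 fold change of -0.46 ± 0.54 became 0.029 without WT replicate 2. *Entpd1* differed by 0.31 ± 0.20 in M-MDSCs and 0.038 ± 0.17 in G-MDSCs, and *Tgfb1* by 0.34 ± 0.31 and 0.16 ± 0.47. For both genes each of the 18 other settings left the call unchanged.

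**Figure D5:**
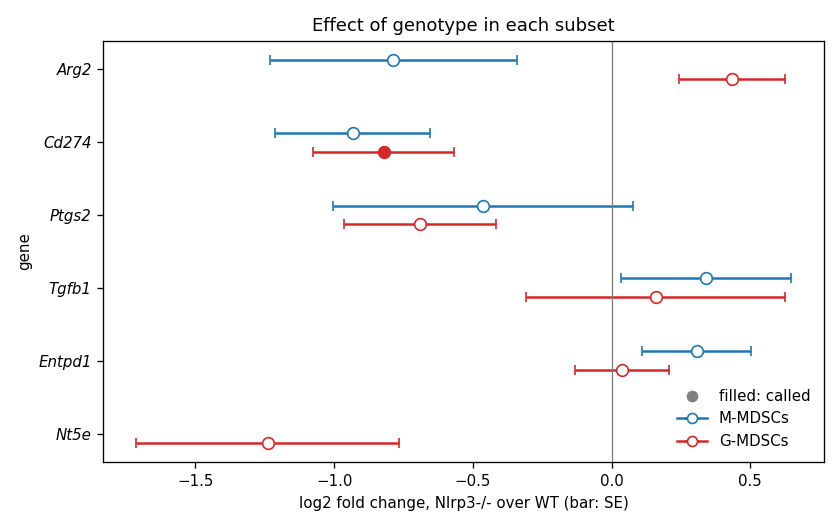
Log2 fold change, *Nlrp3*-/- over WT (x axis), with its standard error, of each effector gene that could be tested (y axis). M-MDSCs are blue and G-MDSCs red, and a filled point passed the test. The *Cd274* point in G-MDSCs is the filled one, and *Nt5e* was tested in G-MDSCs.

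The other genes of these routes were compared between genotypes as well, and their counts stand beside the 3.51% of all genes called higher and 7.10% called lower in M-MDSCs, and 4.70% and 11.7% in G-MDSCs. In the arginine list none of 11 was called in M-MDSCs and 1 in G-MDSCs, *Slc3a2*, the heavy chain of amino acid transporters (175 ± 79.2 CPM in WT and 348 ± 97.0 CPM in *Nlrp3*-/- mice), with list medians of -0.018 and 0.37 beside 0.066 and 0.034 for all genes. In the nitric oxide list 1 of 6 was called in M-MDSCs, *Nosip*, which binds nitric oxide synthases (29.7 ± 2.96 and 48.3 ± 11.5 CPM), and none of 8 in G-MDSCs, with medians of 0.28 and 0.49. None of 6 checkpoint genes was called in M-MDSCs and 1 was in G-MDSCs, *Cd80*, which fell from 66.5 ± 7.49 to 32.5 ± 8.50 CPM (log2 fold change -1.12 ± 0.21, adjusted p = 0.00282, edgeR's quasi-likelihood test), with medians of -0.10 and 0.11. None of 8 IL-10 genes was called in either subset, with medians of 0.21 and 0.52.

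In the prostaglandin list 1 of 8 was called in M-MDSCs and none in G-MDSCs, with medians of 0.13 and 0.15. It was *Hpgd*, the enzyme that inactivates prostaglandin E2, which fell from 30.5 ± 8.94 CPM in WT to 1.19 ± 1.27 CPM in *Nlrp3*-/- M-MDSCs (log2 fold change -4.69 ± 0.52, adjusted p = 0.000897, edgeR's quasi-likelihood test). In G-MDSCs *Hpgd* was 2.58 ± 1.92 and 2.45 ± 2.36 CPM. In the ATP and adenosine list 1 of 11 was called in M-MDSCs and 2 of 11 in G-MDSCs, all lower, with medians of 0.15 and 0.35. *Entpd7*, an intracellular relative of *Entpd1*, fell in both subsets (20.4 ± 4.54 to 7.08 ± 3.56 CPM and 12.7 ± 2.36 to 4.43 ± 3.62 CPM), and *Ada*, which degrades adenosine, fell in G-MDSCs from 7.41 ± 1.96 to 1.21 ± 1.22 CPM.

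Of the TGF-β genes, *Nrros*, which anchors latent TGF-β on myeloid cells, rose in both subsets (604 ± 49.4 to 923 ± 163 CPM and 681 ± 101 to 1327 ± 179 CPM), and *Thbs1*, an activator of latent TGF-β, fell in G-MDSCs (157 ± 44.5 to 82.9 ± 31.5 CPM). These were 1 of 4 tested in M-MDSCs and 2 of 5 in G-MDSCs, with medians of 0.41 and 0.37. Of 16 regulators 1 was called higher in M-MDSCs and 1 higher and 4 lower in G-MDSCs, with medians of 0.034 and 0.0023. *Rela*, a subunit of NF-κB, rose in both (114 ± 11.1 to 192 ± 47.4 CPM and 194 ± 55.6 to 362 ± 26.8 CPM), and in G-MDSCs *Olr1* (LOX-1) fell from 11.6 ± 3.87 to 4.12 ± 1.39 CPM. The calls of *Slc3a2*, *Thbs1*, *Entpd7*, *Rela* and *Olr1* in G-MDSCs, and of *Nosip*, *Nrros* and *Rela* in M-MDSCs, were lost after correcting for GC content and length. Lost under the replicate block were those of *Ada* and *Olr1* in G-MDSCs, and again of *Nosip*, *Nrros* and *Rela* in M-MDSCs.

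Summed markers of other cells moved with genotype as well. The 7 markers of red pulp macrophages summed to 75.5 to 84.4 CPM in WT and 152 to 283 CPM in *Nlrp3*-/- M-MDSCs, and to 412 to 716 and 892 to 1136 CPM in G-MDSCs. The 5 NK cell markers summed to 35.1 to 70.7 and 90.1 to 136 CPM in M-MDSCs and to 20.9 to 47.8 and 53.7 to 92.0 CPM in G-MDSCs, and the 7 dendritic cell markers to 154 to 206 and 213 to 271 CPM in G-MDSCs, with overlap in M-MDSCs (26.9 to 63.2 and 44.4 to 84.1 CPM). Apart from the dendritic cell sum in M-MDSCs, these sums did not overlap between genotypes, and they were higher in *Nlrp3*-/- mice. The monocytic sum in G-MDSCs did not overlap either, at 688 to 980 CPM in WT and 1015 to 1239 CPM in *Nlrp3*-/- mice. Of its markers only *Csf1r* did not overlap there (339 to 691 and 699 to 908 CPM). *Ccr2*, for example, was 3.39 to 12.3 and 4.38 to 8.48 CPM. The part of these sums in the genotype results was not tested. In G-MDSCs *Itgax* made nearly all of the dendritic cell sum (150 to 203 CPM in WT, 209 to 267 CPM in *Nlrp3*-/- mice). Of the NK cell markers only *Gzma* rose without overlap, in both subsets. *Eomes* fell in G-MDSCs, from at least 4.05 CPM to at most 3.46 CPM. All red pulp markers rose without overlap in G-MDSCs, where *Slc40a1* was the largest (299 to 500 and 525 to 682 CPM). In M-MDSCs *Spic* and *Hmox1* overlapped. The sums of the other lists overlapped between genotypes, though some single markers in them did not and went either way. The B cell marker *Ms4a1* was 29.5 to 37.3 CPM in WT and 8.34 to 26.2 CPM in *Nlrp3*-/- M-MDSCs. In G-MDSCs it was 71.9 to 144 and 28.1 to 50.8 CPM, whereas *Cd79b* was 40.5 to 64.5 and 75.4 to 102 CPM. The T cell marker *Cd4* and the platelet marker *Itga2b* rose without overlap in G-MDSCs. *Cxcr2* in G-MDSCs was 1848 to 3190 CPM in WT and 852 to 1541 CPM in *Nlrp3*-/- mice. In M-MDSCs *Klf4* was 424 to 690 and 279 to 343 CPM, and *Retnlg* 9.44 to 67.7 and 90.4 to 315 CPM. T cell markers summed to 54.0 to 79.2 and 53.9 to 120 CPM in WT and *Nlrp3*-/- M-MDSCs and to 103 to 158 and 126 to 175 CPM in G-MDSCs, and B cell markers to 84.4 to 111, 68.3 to 134, 203 to 289 and 171 to 278 CPM in the same order. Erythroid markers, whose 4 globins had no reads, summed to 8.37 to 72.0, 10.4 to 57.5, 16.2 to 112 and 14.5 to 122 CPM, and platelet markers to 6.50 to 20.3, 8.08 to 16.7, 9.72 to 24.7 and 20.7 to 35.8 CPM. Eosinophil and basophil markers summed to 3.21 to 20.5, 7.43 to 21.3, 19.0 to 29.1 and 24.4 to 40.3 CPM, and melanoma markers to 21.7 to 37.8, 23.3 to 31.7, 38.0 to 41.3 and 32.1 to 44.0 CPM, with no reads of *Mlana*, *Tyr* or *Tyrp1* in any group. Nearly all of the melanoma sum was *Mitf* (21.5 to 37.5, 23.3 to 31.3, 38.0 to 41.0 and 32.1 to 44.0 CPM), and *Pmel* and *Dct* reached at most 1.45 and 0.676 CPM. The 10 immediate early genes, which can rise while cells are handled, summed to 2508.5 to 4176 and 1889 to 2961 CPM in WT and *Nlrp3*-/- M-MDSCs and to 5010 to 12004 and 10495 to 14616 CPM in G-MDSCs. Within this list 3 genes rose without overlap in G-MDSCs. They were *Junb* (1234 to 2836 and 2888 to 4171 CPM), *Ier2* (328 to 499 and 661 to 954 CPM) and *Dusp1* (1161 to 2900 and 3218 to 4210 CPM). *Atf3* fell without overlap in M-MDSCs (277 to 538 and 198 to 272 CPM).

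Over the 16 libraries the genes whose log2 CPM ran most closely with *Arg2* were *Il1b*, *Amer2* and *Lilr4b* (Pearson's r of 0.993, 0.993 and 0.992), and with *Entpd1* they were *Steap4*, *Entpd3* and *Trim30b* (0.995, 0.995 and 0.995). These correlations describe mainly the subset difference, and 1029 and 1083 of the 10696 genes reached 0.9 with *Arg2* and *Entpd1*. For *Ptgs2* the closest were *Clec5a*, *Cd9* and *Sp4* (0.958, 0.953 and 0.952), for *Cd274* *Heca*, *Aff4* and *Brwd1* (0.963, 0.954 and 0.953), for *Tgfb1* *Ehmt2*, *Cat* and *Kcnab2* (0.966, 0.965 and 0.963), and for *Nt5e* *Stk39*, *Tbrg1* and *Ets1* (0.931, 0.929 and 0.918). At 0.9 or more stood 271 genes with *Ptgs2*, 112 with *Cd274*, 251 with *Tgfb1* and 9 with *Nt5e*. The points share library depth and subset.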

How the data were processed

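QuantSeq 3′ mRNA libraries of sorted MDSCs were aligned by the authors to mm10 with HISAT2 2.1.0 and counted by strand with htseq-count, and the raw counts per gene symbol were deposited for each library. The submitters' processing notes also name edgeR 3.14.0. Groups and replicate numbers came from the sample labels. Counts were analysed with edgeR 4.0.16 (R 4.3.3) by filterByExpr, TMM and the quasi-likelihood test within the 8 libraries compared, or all 16 for the difference between effects, with p-values adjusted over all genes tested. A call needs an FDR under 0.05 and a fold change above 1.5. Replicates were separate mice. Genes too low for the filter were tested on CPM by exact permutation, two-sided (scipy 1.17.1), adjusted over 16 tests. Between subsets neither test paired the libraries of a mouse, and the replicate block is the alternative that does. Log2 CPM used a prior count of 2. Gene locations came from GENCODE, and figures from matplotlib 3.10.9. The fits were tested on simulated data.

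The effector genes and lists were chosen with earlier results of these data known. Genes named from the 8 pathway lists are at most 3 called genes with the smallest p per list and comparison, and likeness names the 3 genes with the highest r. A gene that this rule names is not reported here. Same-numbered M-MDSC and G-MDSC libraries come from the same mouse by the mouse named in the labels, with correlations of their deviations from the group means of 0.00821 to 0.397. Alternatives were DESeq2 1.42.0, edgeR's exact test, DESeq2's size factors, library size only, no filter, all 16 samples, no fold change minimum, a replicate block, a correction for GC content and length by splines, and leaving out each library. Libraries held 2295967 to 6079866 counts, and among 24 pairs within groups 0 were identical. Floors cover counting error only, since amplified reads are not independent molecules.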

Additional observations from a re-analysis of the deposited data

Results flagged for a closer look

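In 5 of the 36 groups of 4 libraries examined, a library stood apart from the other 3 by Dixon's gap test. For values that are not at 0, chance alone gives this in about 1 of 20 groups. *Il10* reached 5.89 CPM in WT M-MDSC replicate 2 against 0.342 to 1.07 CPM in the others. *Nt5e* reached 9.86 CPM in *Nlrp3*-/- G-MDSC replicate 2 against 2.31 to 3.41 CPM. *Entpd1* reached 27.4 CPM in *Nlrp3*-/- M-MDSC replicate 2 against 18.5 to 19.97 CPM. *Nos2* stood at 0.740 CPM, 3 reads, in *Nlrp3*-/- G-MDSC replicate 2, and *Arg1* at 0.231 CPM, 1 read, in *Nlrp3*-/- G-MDSC replicate 1, against 0 reads in the other libraries of the group. With the others at 0, any read sets a library apart, so the chance rate does not apply to these 2 groups.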

How the results depend on the processing

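Between subsets the effector calls were the same under all alternatives, apart from *Cd274* in WT mice with scaling by library size, and from *Nt5e* in *Nlrp3*-/- mice, which was too low for the main test and was called where a setting admitted it: without the filter, with all 16 samples and in 7 fits without a replicate. Where the filter was kept, *Nt5e* entered through G-MDSCs, where it is high. For the genotype effect in M-MDSCs, 1060 genes were called, and 425 with the replicate block, 659 with the GC content and length correction, 47 with both, and 450 to 1783 without a replicate. No effector gene was called there, but 1 was with DESeq2, edgeR's exact test, DESeq2's size factors or all 16 samples, and 0 to 1 without a replicate. In G-MDSCs 1522 genes were called, and 985 with the replicate block, 964 with the correction and 396 with both. Of the effector genes, 1 was called there, 2 without the filter, 0 with library size, all 16 samples, the block, the correction or both, and 0 to 1 without a replicate. The gene called was not always *Cd274*: it was *Ptgs2* without *Nlrp3*-/- replicate 1 and *Nt5e* without *Nlrp3*-/- replicate 2. Scaling by library size moved the share of higher genes among the called from 33.1% to 54.6% in M-MDSCs and from 28.6% to 48.1% in G-MDSCs, and the all-gene median of the log2 fold change from 0.066 to 0.17 and from 0.034 to 0.16. The difference between the effects had 3 calls, 8 with DESeq2, 5 without the filter and 2 to 5 without a replicate.

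The numbers shared by WT and *Nlrp3*-/- samples mark different mice, with correlations of -0.452 to 0.0177 in M-MDSCs and -0.263 to -0.0438 in G-MDSCs. The replicate block changed no call of an effector gene other than *Cd274* in G-MDSCs. Signs reversed only for effects that were not called. With the block and correction *Ptgs2* in M-MDSCs was 0.047 and *Tgfb1* in G-MDSCs -0.027, which was -0.013 with the correction alone. By library size the *Il10* difference in M-MDSCs was 0.167 CPM. Without a replicate the ranges were -0.94 to 0.029 for *Ptgs2* in M-MDSCs, -0.12 to 0.40 for *Tgfb1* and -0.034 to 0.21 for *Entpd1* in G-MDSCs, and, for the difference between effects, -0.22 to 0.37 for *Cd274*, -0.75 to 0.18 for *Ptgs2*, -0.40 to 0.22 for *Tgfb1* and -0.98 to 0.27 for *Nt5e*. The cause was not tested. Depth limits *Arg1*, *Nos2*, *Ptges* and *Il10*, which had few or no reads.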
